A study of Neurospora crassa with 54 samples.

Results

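NCU06110 and NCU09345 (nmt-1) were the 2 genes of Neurospora crassa, a filamentous fungus, that held the largest read count of at least 1 RNA-seq library, out of 10398 genes in the deposited count table. They were chosen by their raw counts, so their high level is a description. The choice compared rows within a library and not strains. Nmt-1 entered only through libraries where its count exceeded that of NCU06110, so the ratio of the 2 genes is not independent of the choice. NCU06110 had the largest count in 10 libraries and nmt-1 in the other 2, the double deletion replicate 2 and the ∆hH2Az replicate 3. Both were the 2 largest rows in all 12 libraries.

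The series had 54 samples, of which 12 were RNA-seq libraries and 42 were chromatin samples not analysed here. RNA was sequenced in 3 replicates of each of 4 strains, labelled ∆hH2Az;∆set-7 (the double deletion), ∆hH2Az, ∆set-7 and Wild type (WT). The gene hH2Az encodes the histone variant H2A.Z, and set-7 encodes the methyltransferase that acts on lysine 27 of histone H3. All were mycelium grown for 12 h with 2% glucose at 30 °C in constant light, and the sources used here tie each deletion to 1 strain label and do not say whether replicates were separate cultures, so p-values measure the spread between these libraries. In every strain the labels of replicates 1 and 2 carry the tag 920 and that of replicate 3 carries another one, and neither tag has a stated meaning. Replicate 3 stood apart in every strain over the whole table: the chi-square per gene was 25.5 to 45.3 between replicates 1 and 2 of a strain and 136 to 351 between replicate 3 and either of them. Results between strains were therefore also fitted with the tag as a covariate and in the 8 libraries tagged 920 alone. The covariate assumes 1 shift per gene shared by all strains. Deviations of the replicate 3 libraries from their strain means correlated at -0.388 to 0.298 between strains, which does not show such a shift over the whole table.

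Thiamine (vitamin B1) is built in fungi from a thiazole ring and a pyrimidine ring that are made separately and then joined. NCU06110 is known as the gene of the thiazole synthase, the counterpart of THI4 in Saccharomyces cerevisiae, which gives up a sulphur atom of its own cysteine and so works in a single turnover. The enzyme encoded by nmt-1 makes the pyrimidine; its counterpart in Saccharomyces cerevisiae, THI5, takes atoms from its own histidine and from pyridoxal phosphate, the active form of vitamin B6. In Neurospora crassa both genes, and NCU01977, are known to carry riboswitches, RNA elements in the transcript that bind thiamine diphosphate and change splicing. Thiamine diphosphate is the cofactor of central enzymes of carbon metabolism such as pyruvate decarboxylase and transketolase.

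NCU06110 lies on chromosome VII of the NC12 assembly from 1764461 to 1767138, on the minus strand. Its annotated exons joined to 2613 bases of the 2678 it spans, with 11 distinct exons and a single stretch of 65 bases (1765086 to 1765150) that no exon covers. The RefSeq table lists 4 transcripts for it. Its lower end shares 326 exon bases, 12.5% of its exon length, with NCU06111 on the opposite strand, and reads there were left out of both genes by the default of the counting tool. NCU06111 itself had 116 to 779 reads per library.

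Nmt-1 lies on chromosome II from 4177546 to 4180504, on the plus strand, with 2787 exon bases, 9 distinct exons and 3 listed transcripts. Its exons left 3 stretches uncovered, of 58, 55 and 59 bases, and overlapped no other gene. The 2 annotated genes on each side of either gene had mean shares of at most 0.0110% of the counts. The high counts were those of single genes, each with far lower neighbours on both sides.

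NCU06110 made up 3.99, 3.98 and 3.41% of all counts in the double deletion, 3.45, 3.52 and 2.24% in ∆hH2Az, 4.97, 4.50 and 3.87% in ∆set-7, and 6.76, 6.002 and 3.84% in WT, in the order of replicates 1 to 3. All 3 ∆hH2Az libraries lay below all 3 WT libraries, while the other 2 deletion strains overlapped WT. Such separation was common: on the scaled counts used for the tests below, 23.1% of genes tested were lower in ∆hH2Az without overlap. It was not counted on shares. Its mean share was 3.80 ± 0.334% in the double deletion, 3.07 ± 0.722% in ∆hH2Az, 4.45 ± 0.548% in ∆set-7 and 5.53 ± 1.51% in WT (SD, n = 3 each).

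Nmt-1 made up 3.87, 4.26 and 3.39% of all counts in the double deletion, 3.05, 2.94 and 2.25% in ∆hH2Az, 4.48, 3.79 and 3.76% in ∆set-7, and 4.85, 4.30 and 3.51% in WT. The 3 ∆hH2Az libraries again lay below the 3 WT libraries, and the other deletion strains overlapped WT. On the scaled counts, 23.1% of genes tested had such a separation. Its mean share was 3.84 ± 0.436% in the double deletion, 2.75 ± 0.434% in ∆hH2Az, 4.01 ± 0.405% in ∆set-7 and 4.22 ± 0.676% in WT (SD, n = 3 each).

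Together the genes took 7.64 ± 0.748% of all counts in the double deletion, 5.81 ± 1.15% in ∆hH2Az, 8.46 ± 0.916% in ∆set-7 and 9.76 ± 2.18% in WT (SD, n = 3 each). The highest library was WT replicate 1 with 11.6%, and the lowest was ∆hH2Az replicate 3 with 4.48%. Counts per library totalled 13581416 to 19720473, so a share carried little counting error: the Wilson 95% interval of the 6.76% in WT replicate 1 ran from 6.75 to 6.77%. Such intervals cover counting error only.

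**Figure D1:**
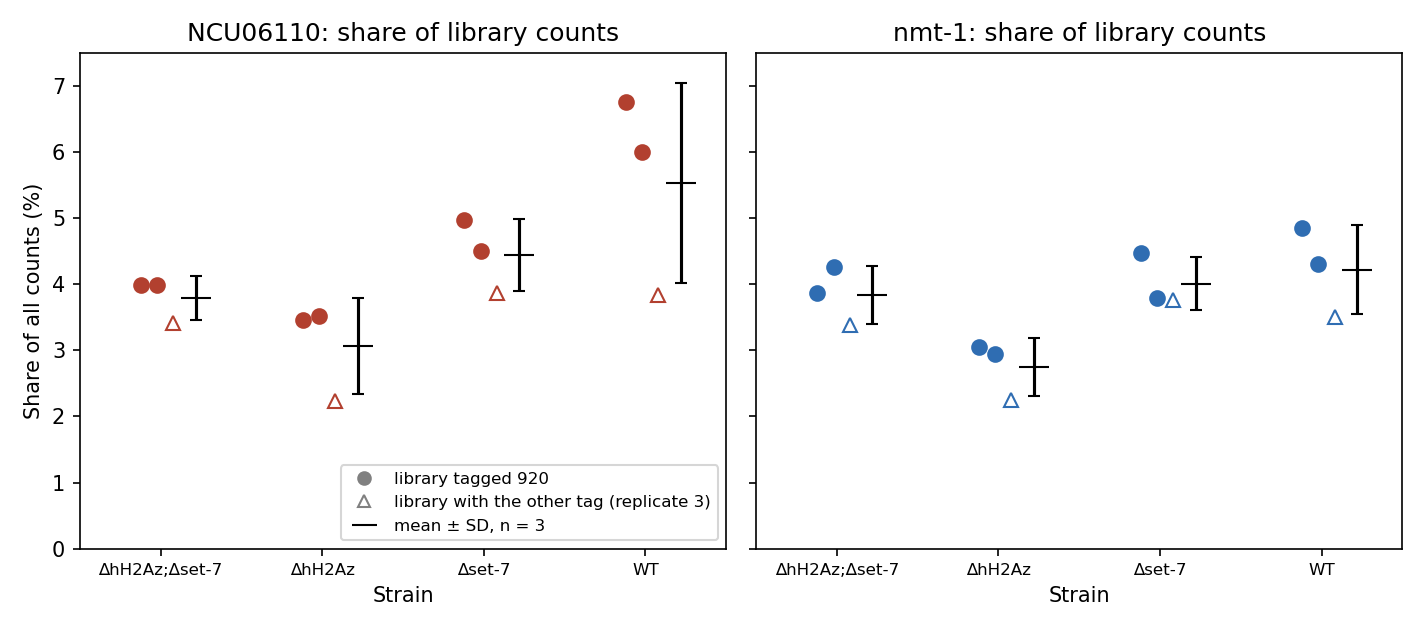
Share of all counts (%) of NCU06110 and nmt-1 in each of 12 libraries, by strain, with libraries tagged 920 as circles, those with the other tag (replicate 3) as open triangles, and the mean ± SD (n = 3) as a bar. The 3 ∆hH2Az libraries lie below the 3 WT libraries for both genes, and in each strain replicate 3 is the lowest. On the scaled counts used for the tests, the first held for 23.1% of genes tested and the second for 4.57%.

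The next rows stood apart from these genes in size. In mean share over the 12 libraries NCU06110 reached 4.21% and nmt-1 3.70%, and the next 3 were emp-7 (enolase, of glycolysis) with 1.47%, aac (the mitochondrial ADP/ATP carrier) with 1.10% and tef-1 (translation elongation factor) with 1.09%. The third-largest row of a library held 1.18 to 2.76% of its counts. Among the 10 rows with the largest mean share were also cfp (pyruvate decarboxylase, an enzyme that uses thiamine diphosphate) with 1.06% and pdx-1 (a subunit of pyridoxal phosphate synthase) with 0.538%.

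**Figure D2:**
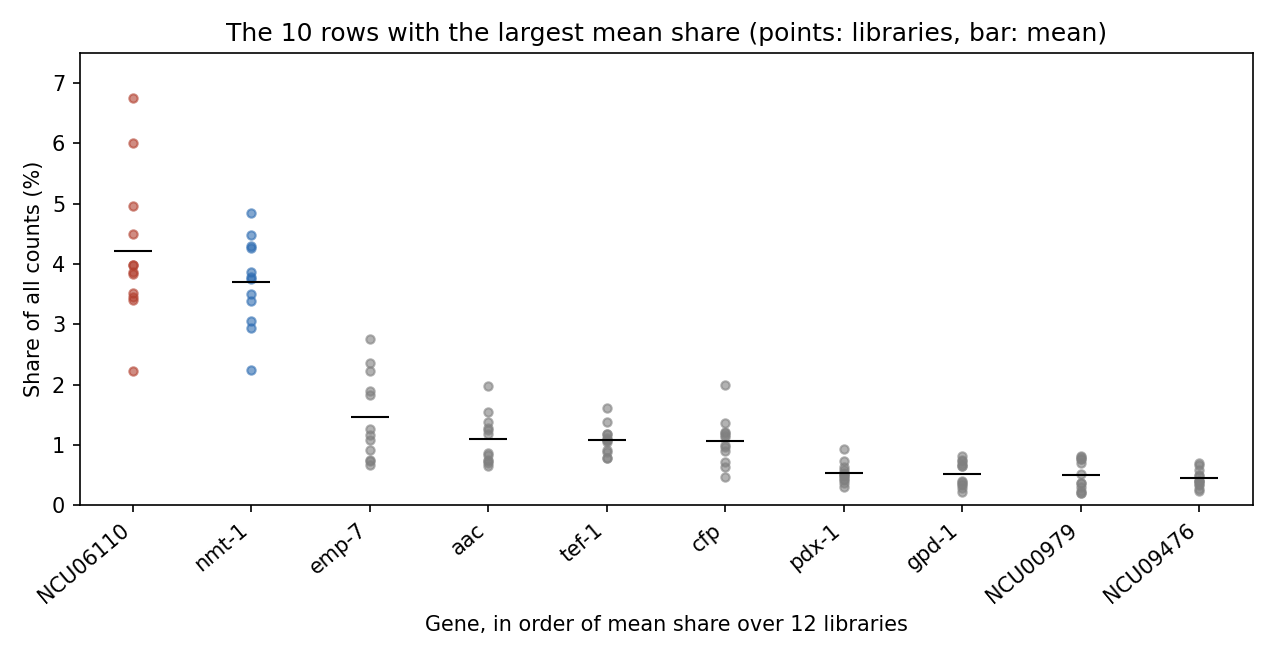
Share of all counts (%) for the 10 genes with the largest mean share, with 1 point per library and the mean over 12 libraries as a bar. NCU06110 (mean 4.21%) and nmt-1 (3.70%) lie above emp-7 (1.47%), and the enzyme gene cfp is the sixth of the 10.

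Levels per length gave the same leading pair, with the whole exon length of NCU06110 used although reads over its shared 326 bases were not counted. NCU06110 had 14526 ± 1276 counts per kb of exon per 1000000 counts in the double deletion, 11740.4 ± 2762 in ∆hH2Az, 17019 ± 2096 in ∆set-7 and 21182 ± 5796 in WT (SD, n = 3 each). Nmt-1 had 13777 ± 1564 in the double deletion, 9854 ± 1558 in ∆hH2Az, 14389 ± 1453 in ∆set-7 and 15143 ± 2427 in WT on the same scale. In ∆hH2Az replicate 3 alone another gene stood ahead of both: aac with 13269 on this scale, against 8554 for NCU06110 and 8070.42 for nmt-1.

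Both genes fell in ∆hH2Az relative to WT, and in the fit without the tag this was the only comparison between strains in which edgeR called either of them. With the tag as a covariate, edgeR called both in the double deletion against WT as well. On the scale of CPM, counts per 1000000 counts of the tested genes after TMM scaling, NCU06110 had 32540.0, 32498 and 20659 in ∆hH2Az, against 77452, 71699 and 37518 in WT. Nmt-1 had 28765, 27159.8 and 20788 CPM in ∆hH2Az, against 55580.4, 51403 and 34242 in WT. The groups did not overlap for either gene, as was so in this direction for 23.1% of the 8372 genes tested.

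NCU06110 fell by 1.12 on the log2 scale in ∆hH2Az (SE 0.306, edgeR adjusted p = 0.0165), to 45.9% of its WT level. Nmt-1 fell by 0.88 (SE 0.244, edgeR adjusted p = 0.0177), to 54.3% of WT. The rows next in mean share, emp-7, aac and tef-1, were called in ∆hH2Az against WT as well. Emp-7 had a log2 change of -1.85 (edgeR adjusted p = 0.00105) and tef-1 had -0.63 (0.0358), while aac had 0.73 (0.0449). A fall among the most abundant rows was thus not confined to NCU06110 and nmt-1. Of all genes tested, 31.1% passed an adjusted p of 0.05 in this comparison and 14.9% did so as lower, so the call itself was common, and the median log2 change of all genes was 0.01. Neither call stood without WT replicate 1, where NCU06110 fell by 0.93 (edgeR adjusted p = 0.0713) and nmt-1 by 0.74 (0.0789), or without WT replicate 2, where the falls were 1.01 (0.0648) and 0.81 (0.0677). For nmt-1 the call was also lost without ∆hH2Az replicate 3, with a fall of 0.75 (edgeR adjusted p = 0.0540). With the tag as a covariate NCU06110 fell by 1.10 (SE 0.170, edgeR adjusted p = 0.000859) and nmt-1 by 0.87 (SE 0.134, edgeR adjusted p = 0.000826), where 35.1% of all genes passed. In the 920 libraries alone they fell by 1.18 (edgeR adjusted p = 0.000455) and 0.92 (0.00251), where 55.2% of all genes passed. Scaled by total counts alone, the falls were 0.85 (edgeR adjusted p = 0.0171) and 0.62 (0.0238), with the median of all genes moved to 0.24. In bulk RNA, a lower level per cell and fewer cells that express a gene cannot be told apart.

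Loss of set-7 alone came with no call for either gene. NCU06110 had 54990.4, 54074 and 35773 CPM in ∆set-7, against the WT values above, a log2 change of -0.37 (SE 0.303, edgeR adjusted p = 0.909, unadjusted p = 0.250). Nmt-1 had 49576, 45593 and 34702 CPM in ∆set-7, a log2 change of -0.12 (SE 0.242, edgeR adjusted p = 0.972, unadjusted p = 0.626). The strains overlapped for both genes, and 1.03% of all genes passed in this comparison. DESeq2 gave an adjusted p of 0.939 for NCU06110 and 0.992 for nmt-1. The small nmt-1 difference changed sign, to 0.02, without WT replicate 1 or without ∆set-7 replicate 3.

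The double deletion lay between ∆hH2Az and WT in mean CPM for both genes. NCU06110 had 37191, 33988 and 32544 CPM in the double deletion, all below the lowest WT library (37518), with a log2 change of -0.85 (SE 0.304, edgeR adjusted p = 0.0531). In CPM, 23.2% of all genes were lower without overlap, and 30.5% passed the test. This difference passed with DESeq2 (adjusted p = 0.0244), which called 34.9% of all genes. With the tag as a covariate it passed at -0.78 (SE 0.170, edgeR adjusted p = 0.00557; 35.0% of all genes), and in the 8 libraries tagged 920 alone at -1.06 (edgeR adjusted p = 0.00104; 54.4% of all genes). It also passed in edgeR when certain single libraries were left out: at -1.11 without WT replicate 3 (adjusted p = 0.0141), at -0.85 without ∆hH2Az replicate 3 (0.0410) and at -0.84 without ∆set-7 replicate 3 (0.0428). It did not pass when any other library was left out. The share of all genes that passed was not counted in these fits. The change was weakest at -0.65 without WT replicate 1 (edgeR adjusted p = 0.194) and -0.73 without WT replicate 2 (0.165). Nmt-1 had 36024, 36355 and 32355 CPM in the double deletion and overlapped WT, with a log2 change of -0.43 (SE 0.242, edgeR adjusted p = 0.200). This difference too passed with the tag as a covariate, at -0.40 (SE 0.133, edgeR adjusted p = 0.0380), and in the 920 libraries alone, at -0.56 (edgeR adjusted p = 0.0383). Scaled by total counts alone, the log2 changes were -0.54 for NCU06110 and -0.14 for nmt-1, with the median of all genes moved to 0.29.

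Adding the set-7 deletion to a strain without H2A.Z changed neither gene past the test. Between the double deletion and ∆hH2Az the log2 difference was 0.28 for NCU06110 (SE 0.302, edgeR adjusted p = 0.905) and 0.45 for nmt-1 (SE 0.242, edgeR adjusted p = 0.596), and 1.45% of all genes passed. With the tag as a covariate these were 0.32 (edgeR adjusted p = 0.519) and 0.47 (0.148, unadjusted p = 0.00519), and neither passed. All 3 double deletion libraries had more nmt-1 CPM than all 3 ∆hH2Az libraries. For NCU06110 the lowest double deletion library, at 32544, lay just above the highest ∆hH2Az library, at 32540.0. In CPM, 5.7% of all genes were higher in the double deletion without overlap.

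Between the double deletion and ∆set-7, which both lack set-7 and differ in H2A.Z, the log2 difference was -0.48 for NCU06110 (SE 0.303, edgeR adjusted p = 0.252) and -0.31 for nmt-1 (SE 0.242, edgeR adjusted p = 0.358), where 29.7% of all genes passed. In the 920 libraries alone NCU06110 passed at -0.62 (edgeR adjusted p = 0.0226), where 57.0% of all genes passed, and nmt-1 had -0.40 (edgeR adjusted p = 0.116). The effect of H2A.Z loss was not shown to depend on set-7. The interaction, the H2A.Z difference without set-7 minus that with it, was 0.64 for NCU06110 (SE 0.428, edgeR adjusted p = 0.889) and 0.57 for nmt-1 (SE 0.342, edgeR adjusted p = 0.885), with 0.179% of all genes past the test. With the tag as a covariate it was 0.66 (edgeR adjusted p = 0.573, unadjusted p = 0.0189) and 0.58 (0.506, unadjusted p = 0.0111). The comparisons share libraries and are not independent of each other.

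**Figure D3:**
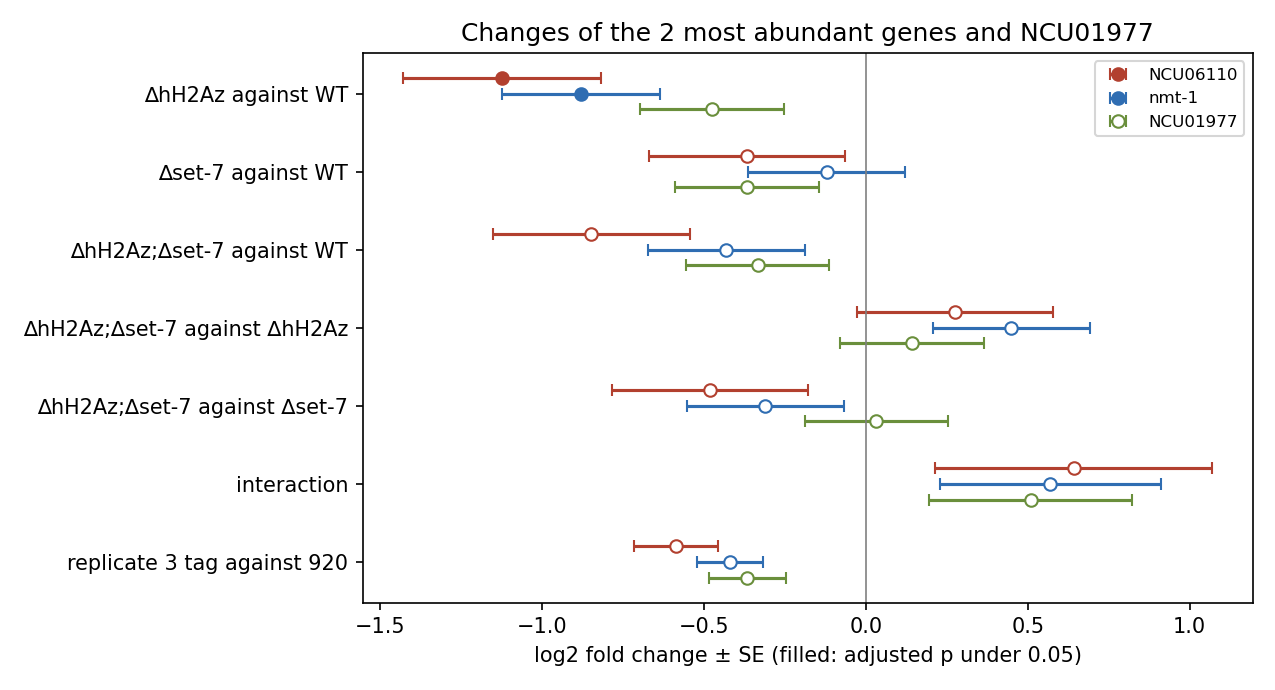
Log2 fold change ± SE from edgeR for NCU06110, nmt-1 and NCU01977 in each comparison between strains, in the interaction and between tags, with filled points where the adjusted p was under 0.05. NCU06110 (-1.12) and nmt-1 (-0.88) are filled in ∆hH2Az against WT, and every other point is open. The fit between strains has no tag term, and the points between tags come from a separate fit that has this term.

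The strains were also pooled by whether they lack H2A.Z, on the share of all counts. Each pool of 6 libraries came from 2 strains, and the exact tests treated single libraries as exchangeable. Their p-values thus measure the spread between libraries and not between strains. NCU06110 held 3.43 ± 0.642% of counts in the 6 libraries lacking H2A.Z (2.24 to 3.99%, median 3.48%) and 4.99 ± 1.18% in the 6 libraries keeping it (3.84 to 6.76%, median 4.73%), a difference of -1.56 points (two-sided exact permutation test, p = 0.0130). Nmt-1 held 3.29 ± 0.714% in the libraries lacking H2A.Z and 4.12 ± 0.512% in those keeping it, a difference of -0.822 points (two-sided exact permutation test, p = 0.0476). The ranges overlapped for both genes. Over the 6 such tests made here, Benjamini-Hochberg adjustment raised these exact p-values to 0.0779 and 0.123, so neither passed when the tag was ignored. Permuted within tags, the exact p was 0.00476 for NCU06110, the smallest that this design allows, and 0.0286 for nmt-1; adjusted over the 6 tests, NCU06110 passed (0.0286) and nmt-1 did not (0.0714). On TMM-scaled log2 CPM in place of the share, both passed, with differences of -0.77 and -0.58 (exact permutation p = 0.00433 and 0.0130, adjusted over 4 tests 0.0173 and 0.0260). On the share, NCU06110 also passed without WT replicate 3 or without ∆set-7 replicate 3 (adjusted exact p = 0.0390 each), and both genes passed without the double deletion replicate 2 (0.0455 each).

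By set-7 the shares came closer. NCU06110 held 4.12 ± 0.540% in the 6 libraries lacking set-7 and 4.30 ± 1.72% in the 6 keeping it (exact permutation p = 0.818), and nmt-1 held 3.92 ± 0.388% in those lacking it and 3.48 ± 0.954% in those keeping it (exact permutation p = 0.316). The difference for NCU06110 was -0.180 points, and it turned to 0.312 without WT replicate 1 and to 0.160 without WT replicate 2. These pooled means join strain pairs whose differences ran opposite ways. Mean shares of NCU06110 were 4.45% in ∆set-7 against 5.53% in WT, but 3.80% in the double deletion against 3.07% in ∆hH2Az. Those of nmt-1 were 4.01% against 4.22%, and 3.84% against 2.75%.

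The balance between the genes also varied by strain. Per kb, NCU06110 over nmt-1 was 1.10, 0.997 and 1.07 in the double deletion, 1.21, 1.28 and 1.06 in ∆hH2Az, 1.18, 1.27 and 1.10 in ∆set-7, and 1.49, 1.49 and 1.17 in WT. The WT libraries tagged 920 had the highest ratios of all 12, and double deletion replicate 2 had the lowest. These ratios use the whole exon length of NCU06110; over the 2287 exon bases not shared with NCU06111 each is 1.14 times as high, and the lowest is 1.14. The mean log2 ratio was 0.16 in libraries lacking H2A.Z and 0.35 in those keeping it (exact permutation p = 0.0758, adjusted p = 0.123). By set-7 the mean log2 ratios were likewise 0.16 in libraries lacking it and 0.35 in those keeping it (exact permutation p = 0.0823, adjusted p = 0.123). Neither difference passed. Permuted within tags, the exact p was 0.0381 by H2A.Z and 0.0476 by set-7, and 0.0714 each after adjustment over the 6 tests. Nmt-1 was chosen through double deletion replicate 2 and ∆hH2Az replicate 3, where its count exceeded that of NCU06110. Both libraries lack H2A.Z, so these comparisons of the ratio are not independent of the choice and are descriptions.

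**Figure D4:**
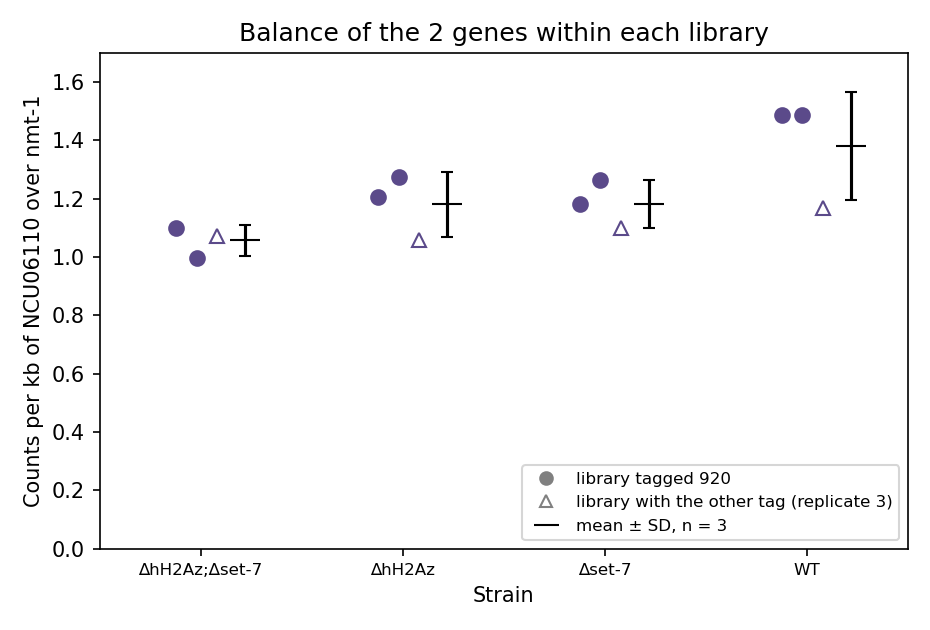
Ratio of counts per kb of NCU06110 to nmt-1 in each library by strain, with libraries tagged 920 as circles, those with the other tag (replicate 3) as open triangles, and the mean ± SD (n = 3) as a bar. The 2 WT libraries tagged 920 are highest at 1.49, and double deletion replicate 2 is lowest at 0.997.

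The label tag moved with both genes. In every strain replicate 3, which carries the other tag, had the lowest share and the lowest CPM of the 3 libraries, for NCU06110 and for nmt-1, which held in CPM for 4.57% of all genes tested. As a percentage of the mean share of the 920 libraries, that of replicate 3 stood for NCU06110 at 85.5% in the double deletion, 64.2% in ∆hH2Az, 81.9% in ∆set-7 and 60.2% in WT. For nmt-1 these values were 83.4% in the double deletion, 75.1% in ∆hH2Az, 90.9% in ∆set-7 and 76.6% in WT.

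Across strains, the log2 change of replicate 3 against the 920 libraries was -0.59 for NCU06110 (SE 0.130, edgeR adjusted p = 0.0584) and -0.42 for nmt-1 (SE 0.101, edgeR adjusted p = 0.0655), where 0.729% of all genes passed. The test of whether this change differed between strains gave an edgeR adjusted p of 0.271 for NCU06110 and 0.696 for nmt-1, against 46.6% of all genes that passed. Without the double deletion replicate 3 the tag change passed for NCU06110 at -0.74 (edgeR adjusted p = 0.0161) and for nmt-1 at -0.50 (0.0401), and without WT replicate 3 it passed for NCU06110 at -0.45 (0.0397). The share of all genes that passed was not counted with these libraries left out. With a single library of that tag per strain, the strain-by-tag test takes its spread from the 920 pairs alone.

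The strain difference was present within each tag. For NCU06110 the log2 CPM of ∆hH2Az minus WT was -1.20 between the 920 means and -0.86 between the replicate 3 libraries, and for nmt-1 it was -0.94 and -0.72. For the double deletion minus WT the 2 tags were further apart, at -1.07 in 920 and -0.21 in replicate 3 for NCU06110, and at -0.56 and -0.08 for nmt-1. A difference between single libraries has no test.

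The third gene of the thiamine list, NCU01977, known as a putative transporter gene, was far less abundant. It averaged 993 ± 78.8 CPM in the double deletion, 900 ± 132 in ∆hH2Az, 970 ± 91.5 in ∆set-7 and 1252 ± 338 in WT (SD, n = 3 each). Its log2 change in ∆hH2Az against WT was -0.48 (edgeR adjusted p = 0.125), and it was called in no other comparison either. Its unadjusted p-values in the comparisons between strains were at least 0.0535. The list holds no further gene, since no product names were at hand to search for other thiamine genes. Its called members are thus NCU06110 and nmt-1 themselves, and its median, -0.88 against 0.01 over all genes tested, is the value of nmt-1.

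Single genes of thiamine diphosphate use and vitamin B6 supply were read in the same comparison. They were fixed in advance, and other such genes were not searched for by product name. The log2 change of cfp in ∆hH2Az against WT was -0.13 (edgeR adjusted p = 0.814). In that comparison pdx-1 had 0.38 (edgeR adjusted p = 0.279) and its partner subunit gene pdx-2 had 0.84 (0.0569), neither of which passed, in a comparison where 31.1% of all genes did.

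Of 3 further genes with thiamine or pyridoxine symbols, added after the gene table was seen, thi-4 (NCU07849, not the THI4 counterpart above) rose by 1.24 (edgeR adjusted p = 0.00745), with 279 ± 5.67 CPM in ∆hH2Az and 118 ± 32.1 in WT (SD, n = 3 each). Pdx-3 fell by 2.88 (edgeR adjusted p = 0.000324), with 17.4 CPM on average in ∆hH2Az and 128 in WT. Pdx-4 had a log2 change of -0.95 (edgeR adjusted p = 0.153).

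Over all 12 libraries, NCU06110 and nmt-1 were the closest match to each other among all genes tested. The Pearson r of their log2(CPM + 1) was 0.964. The genes next most like NCU06110 were NCU00688 (r = 0.936), NCU00976 (0.935), NCU07529 (0.925) and NCU08856 (0.923). For nmt-1 they were NCU00688 (0.944), NCU07239 (0.919), emp-7 (0.915) and NCU16713 (0.915). Within the 8 libraries tagged 920 the pair was not the closest: its r was 0.943, below that of NCU06110 with NCU08856 (0.987), NCU00688 (0.976), NCU00976 (0.973) and NCU07529 (0.953). It was likewise below that of nmt-1 with emp-7 (0.987), NCU07239 (0.969) and NCU00688 (0.964). NCU00688 averaged 0.907 CPM, so its match rests on few reads. An r of at least 0.8 was reached by 229 genes (2.74%) with NCU06110 and by 176 (2.10%) with nmt-1. NCU01977 had an r of 0.871 with NCU06110 and 0.811 with nmt-1, while thi-4 had -0.542 and -0.645. Pdx-3 had 0.677 and 0.686 (0.949 and 0.964 within the 920 libraries), and pdx-4 had 0.587 and 0.540 (0.977 and 0.925 within them). These correlations pool strain and tag differences and are descriptions.

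Of the neighbours, 2 of 8 were called, against 31.1% of all genes tested. In ∆hH2Az against WT, of the 2 genes on each side of NCU06110 only NCU06108 was called, with a fall of 0.85 (edgeR adjusted p = 0.00442). Beside nmt-1 only NCU09344 was called, and it rose by 1.10 (edgeR adjusted p = 0.0273).

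The deleted genes were low in the strains named for them, though not at 0. The gene hH2Az had 23.1 to 37.8 CPM in the double deletion and 16.7 to 32.5 in ∆hH2Az, against 78.8 to 105 in ∆set-7 and 65.6 to 76.9 in WT. Set-7 had 3.13 to 5.15 CPM in the double deletion and 2.71 to 3.92 in ∆set-7, against 8.32 to 12.5 in ∆hH2Az and 7.85 to 9.62 in WT. Conidial genes (eas, con-6, con-8, con-10 and fl), as markers of asexual spores, summed to 359 to 1024 CPM in the double deletion, 150.3 to 810 in ∆hH2Az, 58.0 to 203 in ∆set-7 and 86.0 to 134 in WT. Con-8 made up most of that sum in the strains lacking H2A.Z, with 318 to 1012 CPM in the double deletion and 133 to 799.8 in ∆hH2Az, against 34.0 to 68.8 in ∆set-7 and 30.7 to 66.4 in WT. Eas was lower, with 0.287 to 0.672 CPM in ∆hH2Az, against 19.1 to 66.7 in WT. Of these 5, 1 rose (con-8) and 2 fell (eas and fl) in ∆hH2Az against WT, where 31.1% of all genes passed. None was at 0 in any library, and their part in the results above was not tested.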

How the data were processed

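The deposited table held raw read counts per gene for 12 libraries. Per the file headers, the authors made them with featureCounts, version 1.6.2, using exons of the NC12 annotation, without options for strand, multiple alignments or reads over several genes. Per the submitters' processing notes, BWA 0.7.15, SAMtools 1.3.1 and other tools were used, with no role named; which of them aligned the reads is not stated. The table's other column, exon length, is the deposited length per gene. Gene symbols were taken from RefSeq's table for NC12, which matched 10397 of 10398 genes by chromosome, start and end; that NCU06110 and NCU01977 are thiamine genes rests on prior knowledge.

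Genes were filtered with filterByExpr by strain, leaving 8372, scaled with TMM and tested in 1 fit of 12 libraries with edgeR 4.0.16 (R 4.3.3), quasi-likelihood F-test, Benjamini-Hochberg over all genes, threshold 0.05. The change between tags came from a separate edgeR fit with strain and tag. The SE given with an edgeR result is the absolute log2 change over the square root of its F statistic. The edgeR steps were tested on simulated data. Shares and ratios, 1 value per library, were compared by exact permutation of 6 libraries against 6, whose smallest possible p is 0.00216. CPM is per 1000000 counts of tested genes, and share is of all counts. DESeq2 1.42.0, limma 3.58.1 (voom), other scalings and filters, the tag, and leaving out each library were alternatives. No replicate pair agreed within sampling noise (chi-square per gene from 25.5 to 351). Exact p-values were adjusted over the 6 tests, under each alternative too (4 on log2 CPM, which has no ratio).

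The labels' replicate numbers did not pair the samples: same-numbered libraries deviated together with correlations from -0.388 to 0.490. Genes and lists were chosen with earlier results of these data known; named genes were the 2 genes, the next 3 rows, the fixed lists, the 5 most alike genes and 2 neighbours on each side.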

Additional observations from a re-analysis of the deposited data

Results flagged for a closer look

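One library stood apart in its share of NCU06110 among the 6 libraries lacking H2A.Z. The ∆hH2Az replicate 3, which does not carry the tag 920, had 2.24% of its counts in this gene, while the other 5 had 3.41 to 3.99%. Its gap to the next library was 0.669 of the whole range, above Dixon's critical value for 6 samples. The 12 groups of 6 libraries examined mix 2 strains and both tags and overlap each other, while Dixon's value is for 6 like samples. At 1 in 20 a group, chance gives 0.6 such cases over 12 groups, so 1 case is within what chance gives.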

How the results depend on the processing

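The call of both genes as lower in ∆hH2Az against WT was kept by DESeq2, voom, every scaling and filter tried and the 920 libraries alone. It was lost without single WT libraries, with a log2 range over left-out libraries of -1.39 to -0.93 for NCU06110 (edgeR adjusted p 0.00460 to 0.0713) and of -1.07 to -0.74 for nmt-1 (0.00835 to 0.0789). For NCU06110 in the double deletion against WT, the difference passed with DESeq2 at -0.85 (adjusted p = 0.0244), with the tag as a covariate at -0.78 (edgeR adjusted p = 0.00557), in the 920 libraries at -1.06 (0.00104) and with upper-quartile scaling at -0.95 (0.0451). Over left-out libraries it ran from -1.11 to -0.65 (edgeR adjusted p 0.0141 to 0.194). The replicate number as a block moved it to -0.78 (edgeR adjusted p = 0.0111); that block changed no other call, and the numbers do not pair the libraries. Nmt-1 passed there with the tag as a covariate at -0.40 (edgeR adjusted p = 0.0380) and in the 920 libraries at -0.56 (0.0383), and NCU06110 passed between the double deletion and ∆set-7 in the 920 libraries at -0.62 (0.0226). The tag change of NCU06110 passed with DESeq2 at -0.59 (adjusted p = 0.00286), with a mean of at least 5 CPM at -0.61 (edgeR, 0.0472), with total counts alone at -0.47 (0.0430) and with upper-quartile scaling at -0.64 (0.0487). That of nmt-1 passed with DESeq2 at -0.43 (0.00491) and with a mean of at least 5 CPM at -0.44 (edgeR, 0.0497). The share of all genes that passed was not counted for these tag settings, for upper-quartile scaling, for the replicate block or for left-out libraries. Over left-out libraries the tag changes ran from -0.74 to -0.45 for NCU06110 and from -0.50 to -0.34 for nmt-1. Differences that turned sign over left-out libraries were those of nmt-1 in ∆set-7 against WT (-0.31 to 0.02; 0.0215 without WT replicate 1 and 0.0222 without ∆set-7 replicate 3) and of NCU06110 share by set-7 (-0.593 to 0.312; 0.312 without WT replicate 1 and 0.160 without WT replicate 2). Exact p-values here are adjusted over the tests of the same setting. The share of NCU06110 by H2A.Z passed when permuted within tags, at -1.56 (adjusted exact p = 0.0286), and on TMM-scaled log2 CPM at -0.77 (0.0173), and ran from -1.79 to -1.21 over left-out libraries. That of nmt-1 passed on TMM-scaled log2 CPM at -0.58 (0.0260), and ran from -1.02 to -0.613. In the 920 libraries alone the adjusted exact p-values of these shares were 0.171 for NCU06110 and 0.214 for nmt-1. The smallest exact p that these libraries allow is 0.0286 before adjustment. NCU06110 reached it, with a difference of -1.82 points, and nmt-1 did not (exact permutation p = 0.114, difference -0.827). A single test at that smallest p cannot pass after the adjustment, so the 0.171 does not show a weaker difference for NCU06110. The cause of these changes was not tested. In all, 390 of 426 alternatives over 22 results kept direction and side of the threshold, with no direction for the strain-by-tag test. Only the falls of both genes in ∆hH2Az against WT passed in the main setting. For the other results, keeping the side meant not passing again. The call in ∆hH2Az against WT was lost in 2 of 24 alternatives for NCU06110 and in 3 of 24 for nmt-1. Counting error was small at these depths; with the tag as a covariate the SE of NCU06110 in ∆hH2Az against WT was 0.170, against 0.306 without it.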
